A study of Mus musculus with 12 samples.

Results

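BMEL cells are bipotential mouse embryonic liver lines, and the comparison set out here was between 2 of them, 9A1 and 14B3, grown in basal culture. The members are the 4 arrays whose titles name basal culture, 2 of 9A1 and 2 of 14B3, out of 12 arrays in the series. Each line was isolated independently from liver at 14 days post coitum, from embryos of a CBA/J by C57Bl/6J cross, and the replicates of a line are biological duplicates. All groups shared this origin, and the labels name no transgene and no treatment other than the form of culture. The other 8 arrays held the same lines after 1 and 5 days as aggregates, and they are used here to estimate the spread between duplicates and to see whether a line difference recurred. Each array was hybridised with labelled material made from 5 ug of total RNA. Since each line is a single isolate, a difference between 9A1 and 14B3 is a difference between these lines and cannot be told apart from differences between the embryos they came from.

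Hepatoblasts are the fetal liver cells from which both hepatocytes and bile duct cells arise, and BMEL lines were established as a culture model of them. In basal culture such cells grow as a dividing epithelial layer with little of the secretory output of hepatocytes, and in aggregates they take up hepatocyte functions. Independently isolated lines can differ in sex, in chromosome content and in the state in which they grow.

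Levels are given as log2 RMA values throughout, a scale on which 1 unit is a doubling, and differences are 9A1 minus 14B3. Both lines carried epithelial and liver genes in basal culture. Krt8, an epithelial keratin, read 14.13 and 14.02 on the 9A1 arrays and 14.23 and 14.17 on the 14B3 arrays, and the liver transcription factor Hnf4a read 11.99 and 11.48 against 10.98 and 11.48. Afp, the fetal serum protein, read 12.48 and 8.97 in 9A1 and 11.75 and 11.44 in 14B3. Dlk1, a surface marker of hepatoblasts, was low on all 4 arrays, at 7.08 and 5.75 against 5.64 and 5.98. Epcam, an epithelial adhesion molecule, read 12.63 on 9A1 replicate 1 but 6.86, 6.86 and 7.48 on the other 3 arrays. The markers of other liver cell types gave similar averages on the 4 arrays: 5.97 to 6.03 for the 12 blood cell markers tested, 5.69 to 5.90 for 11 endothelial markers and 6.04 to 6.15 for 13 stellate and mesenchymal markers. The average over all tested genes was 7.91 to 7.98 on these arrays, and the median over all probe sets was 6.09 to 6.12. Ptprc, the pan-leukocyte antigen, and Col3a1, a fibroblast collagen, stayed under the floor of 5 on all 4 arrays. Single members lay higher, such as Cd68, a macrophage marker, at 8.13 and 7.30 against 6.95 and 7.07, and Eng, an endothelial marker, at 8.10 on 9A1 replicate 2 and 8.21 and 8.27 in 14B3. The endothelial genes Vwf and Cdh5 read 7.25 and 7.65 on 9A1 replicate 1 and between 4.64 and 5.60 on the other arrays.

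Xist and the Y-linked genes Kdm5d, Eif2s3y and Uty separated the arrays differently from the labels. Xist, the RNA that coats the inactive X chromosome, read 12.13 on the library labelled 9A1 replicate 1, 6.69 on 9A1 replicate 2, and 11.62 and 12.07 on the 14B3 arrays. Kdm5d, a histone demethylase gene of the Y chromosome, read 3.80, 9.04, 3.78 and 3.94 in the same order. Eif2s3y, a Y-linked translation factor gene, read 3.88, 9.83, 3.46 and 3.75, and Uty, another Y-linked demethylase gene, read 4.46, 7.11, 4.47 and 4.30. On these 4 genes the library labelled 9A1 replicate 1 therefore lay with 14B3, and 9A1 replicate 2 lay with both day 5 arrays of 9A1, where Xist read 6.30 and 6.51 and Kdm5d read 9.27 and 9.20. The day 1 array labelled 9A1 replicate 2 showed the same discordance, with Xist at 12.25 and Kdm5d at 4.24. Not every sex-linked gene had this pattern. Eif2s3x, an X-linked gene, followed the labels, at 11.83 and 11.85 in 9A1 against 12.42 and 12.40 in 14B3, with its other probe sets in the same order. Usp9y, a Y-linked gene, lay between 5.14 and 5.32 on all 4 basal arrays. Below, the first basal array is called the library labelled 9A1 replicate 1, and the counts and list medians are also given without it.

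**Figure D1:**
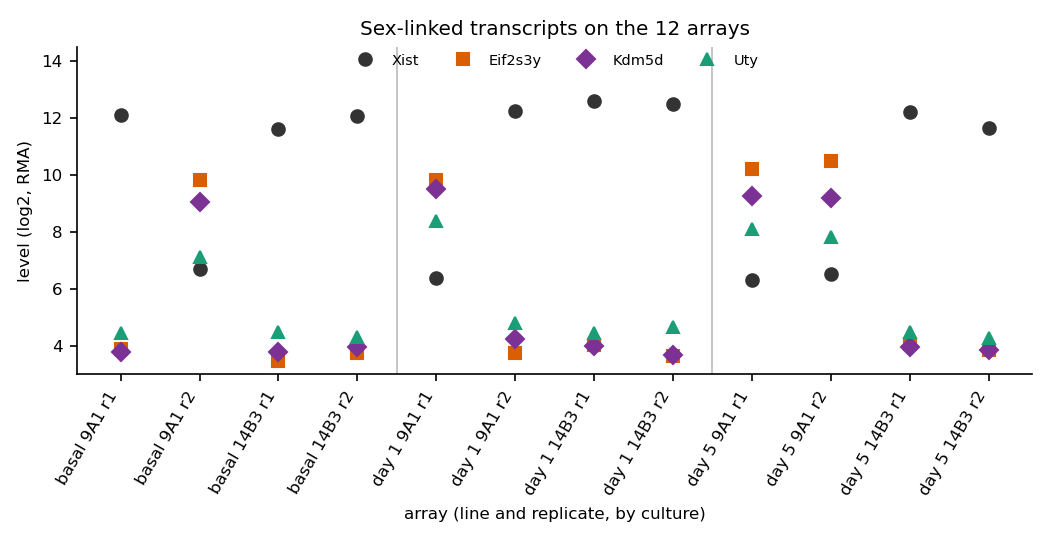
Levels (log2 RMA) of the X-linked Xist and of the Y-linked Eif2s3y, Kdm5d and Uty on each of the 12 arrays, 1 point per array. Basal 9A1 replicate 2, day 1 9A1 replicate 1 and both day 5 9A1 arrays have Xist between 6.30 and 6.69, and the other 8 arrays have it between 11.62 and 12.61.

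The discordance was also seen in genes outside the sex-linked list, such as Ifi202b, Grb10 and Pla2g4a below. The counts given first were taken over all tested genes, and the sex-linked genes were not removed from them. Genes at least 2 log2 apart between the day 5 arrays of the lines numbered 77, and in 36 of them 9A1 replicate 2 lay at least 1 log2 from the basal 14B3 mean in the same direction. The library labelled 9A1 replicate 1 lay nearer the 14B3 mean than 9A1 replicate 2 in 33 of those 36. With a day 5 gap of at least 1 log2, the same held in 72 of 88 genes, out of 264. Both sets were chosen for replicate 2 lying away from 14B3, which favours replicate 1 being the nearer, so these counts are a description. Ifi202b, an interferon-inducible gene, read 4.65 on that library, 11.31 on 9A1 replicate 2, and 4.68 and 4.91 in 14B3. Grb10, an imprinted adaptor of growth factor receptors, read 5.04, 9.55, 5.03 and 5.10, and Pla2g4a, the cytosolic phospholipase that releases arachidonic acid, read 9.81, 4.46, 10.29 and 10.26. In the other 3 and 16 genes it lay nearer 9A1 replicate 2, and it shared with that array the genes described below as apart on both arrays. The cause of this pattern was not tested.

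The library labelled 9A1 replicate 1 also carried hepatocyte and gut genes that the other 3 basal arrays did not. It lay at least 1 log2 above all 3 in 886 of 15781 genes (5.61%) and at least 1 log2 below all 3 in 328 (2.08%). Lypd8, a protein of the gut surface, read 13.81 on it and between 4.83 and 5.13 on the other 3. Apoa4, an apolipoprotein, read 14.31 against 6.15 to 6.64, and Alb, the serum albumin gene, read 13.14 against 5.57 to 6.86. Further genes of large excess were Clca4b, Cyp2d26, 2210407C18Rik, Apoc3, Adh1 and Apoc2, all between 12.90 and 13.78 on it. The largest deficits were in Clca3b, Ccl9, Tnnt2, Fgf13, Fbln2, Glrp1, Adgra2 and Upk1b, among which the chemokine gene Ccl9 read 5.87 against 10.03 to 11.02. The 32 absorptive gut and brush border genes averaged 9.87 on it and 6.47, 6.64 and 6.94 on the others, and 28 mitosis genes averaged 9.81 against 10.97, 11.01 and 10.87. Set against both 14B3 arrays, it lay at least 1 log2 above in 1000 genes (6.34%) and below in 468 (2.97%), and 9A1 replicate 2 did so in 195 (1.24%) and 136 (0.862%). The standard deviation over genes of the difference between duplicates was 0.896 for basal 9A1 and 0.253 for basal 14B3.

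**Figure D2:**
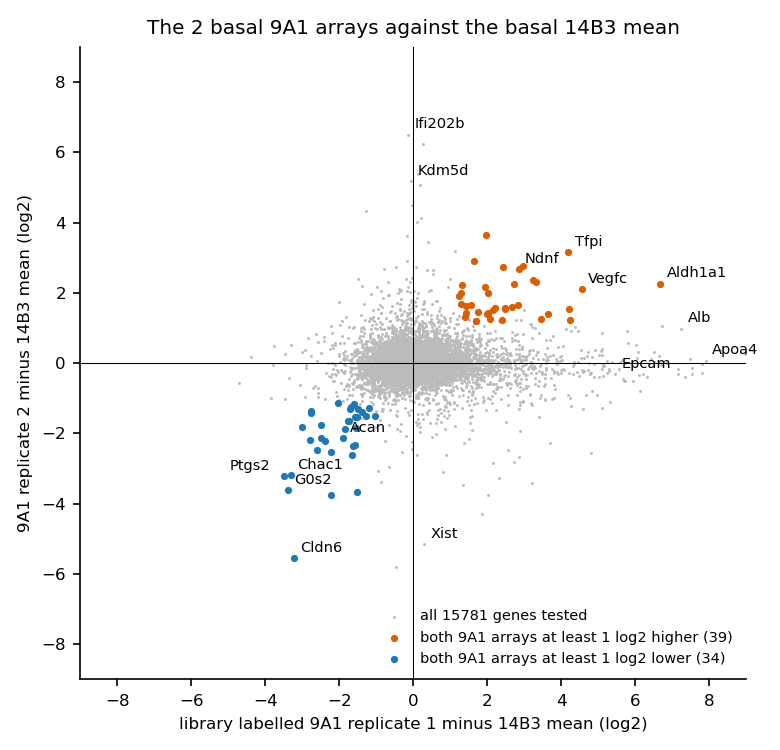
Each gene's level on the library labelled 9A1 replicate 1 minus the basal 14B3 mean (x axis, log2) against the same for 9A1 replicate 2 (y axis, log2), for 15781 genes. Orange and blue points are the 39 genes at least 1 log2 higher and the 34 at least 1 log2 lower on both 9A1 arrays than on both 14B3 arrays. Points spread along the x axis include the hepatocyte genes Alb and Apoa4, and points on the y axis near 0 on the x axis include Kdm5d, Ifi202b and Xist.

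The comparison of the lines asked which genes differed in spite of that. With the limma test over all 12 arrays, 3 of 15781 genes passed an adjusted p of 0.05, all lower in 9A1 (0.019%), and 0 were higher (0%), while 456 higher (2.89%) and 600 lower (3.8%) had an unadjusted p under 0.05. Chac1, which encodes a glutathione-degrading enzyme induced by amino acid stress, read 7.07 and 7.19 in 9A1 and 10.59 and 10.14 in 14B3. Its difference was -3.24 ± 0.32 (SE of limma, n = 2 arrays per line), a 9.47-fold lower level in 9A1. Each SE given here rests on a spread estimated over all 12 arrays and not on the 4 basal arrays alone. Ptgs2, the inducible cyclooxygenase of prostaglandin synthesis, read 6.74 and 7.02 against 10.53 and 9.93, a difference of -3.35 ± 0.33. Acan, the gene of the large proteoglycan aggrecan, read 6.10 and 5.85 against 8.05 and 7.93, a difference of -2.02 ± 0.19. For all 3 genes the adjusted p of limma was 0.0148, the arrays of the lines did not overlap, and both probe sets of Ptgs2 showed the gap. The 14B3 duplicates of Chac1 and Ptgs2 differed from each other by more than those of most genes.

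In aggregates these 3 genes were lower in 14B3 than in its basal culture. Chac1 in 14B3 averaged 8.16 at day 5 against 7.42 in 9A1, Ptgs2 averaged 5.25 against 4.51, and Acan 6.02 against 5.98, and 0 of the 3 passed the test between lines at day 5, where 0.222% of all genes were called higher and 0.0253% lower. The interaction of line with culture had adjusted p-values of 0.200, 0.189 and 0.084 for Chac1, Ptgs2 and Acan in limma, so the change of the difference did not pass the test, which called 6 genes (0.038%), or 148 (0.938%) without 2 discordant libraries, basal 9A1 replicate 1 and day 1 9A1 replicate 2. All 3 also passed without the library labelled 9A1 replicate 1, with adjusted p-values from limma of 0.0431, 0.0431 and 0.0292, and without both discordant libraries, with 0.00287, 0.00332 and 0.00103. Leaving out basal 14B3 replicate 1, basal 14B3 replicate 2, either day 1 14B3 array or either day 5 9A1 array left 0 genes lower at the threshold, with adjusted p-values for these 3 genes between 0.0544 and 0.200. Without day 5 14B3 replicate 1 or replicate 2 the adjusted p of Acan was 0.0584 and 0.0577. Leaving out either day 1 9A1 array gave 7 higher and 11 lower, and leaving out basal 9A1 replicate 1 gave 6 and 6 (0.038% each). Without basal 9A1 replicate 2 the counts were 1031 and 464. With the replicate number as a block Chac1 had an adjusted p of 0.0558.

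Because 2 arrays against 2 cannot go below p = 0.333 in an exact two-sided permutation test, genes were also described by the distance between the nearest arrays of the lines. Both 9A1 arrays lay above both 14B3 arrays in 2184 genes (13.8%) and below in 4271 (27.1%), so that 66.2% of the genes without overlap were lower in 9A1. The gap reached 1 log2 in 39 genes higher in 9A1 (0.247%) and 34 lower (0.215%). The genes with the largest gaps named next were chosen after their values were seen, and where no test is given they did not pass it. By their choice, 9A1 replicate 2 alone lay at least 1 log2 from both 14B3 arrays in all of the 39 and 34. Taken by itself, that array did so in 195 genes upward (1.24%) and 136 downward (0.862%).

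Among the genes higher in 9A1, Tfpi had the largest gap. Tfpi, which encodes the inhibitor of the tissue factor pathway of clotting, read 11.58 and 10.56 against 7.27 and 7.51. Its other 3 probe sets had gaps between 3.81 and 4.50. Ndnf, a secreted neurotrophic factor, read 8.13 and 7.96 against 5.27 and 5.30, while its other probe set was at background on all 4 arrays. Crip1, a LIM-domain protein abundant in gut, read 11.20 and 11.02 against 7.96 and 8.52, and Ifitm2, an interferon-induced membrane protein, read 12.15 and 11.67 against 9.17 and 9.71. These 4 genes were also apart between the lines at day 5, where Tfpi read 9.12 and 9.75 in 9A1 and 7.80 and 7.68 in 14B3. On the day 1 array labelled 9A1 replicate 2, Tfpi read 7.47 and Ndnf 4.43, levels like those of 14B3.

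Secreted hepatocyte proteins were part of this group. Fgb and Fga, chains of fibrinogen, read 7.96 and 8.28 against 5.31 and 5.77, and 7.91 and 5.66 against 4.43 and 4.12. Cp, the copper-carrying ferroxidase ceruloplasmin, read 9.11 and 10.81 against 6.87 and 7.44. In all, 9 of 23 secreted proteins were higher on both 9A1 arrays and 0 were lower, against 13.8% and 27.1% of all genes, with a median difference of 1.07 against -0.05 for all genes. That median was 0.06 without the 2 discordant libraries, and the list averaged 8.86 on the library labelled 9A1 replicate 1 against 6.78, 6.29 and 6.53 on the other arrays. With all arrays 0 of the 23 passed the limma test, and 5, all higher, had an unadjusted p under 0.05. In 14B3 aggregates at day 5 the means of Fgb, Fga and Cp were 8.65, 8.96 and 9.09, above all their basal 14B3 levels.

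Among the other genes, Fst, the activin antagonist follistatin, read 8.32 and 7.67 against 6.22 and 6.02, and its second probe set showed the same order. Bmp2, a bone morphogenetic protein, read 9.88 and 7.23 against 5.41 and 5.95, and the lymphatic growth factor Vegfc read 10.73 and 8.27 against 5.85 and 6.50. For both, the library labelled 9A1 replicate 1 held the highest level. Aldh1a1, a retinaldehyde dehydrogenase, read 12.65 and 8.23 against 5.38 and 6.56, and averaged 13.93 and 13.94 in the day 5 aggregates of the lines. Pmaip1, the apoptosis gene also called Noxa, read 11.45 and 11.38 against a mean of 10.06 in 14B3 and had the largest gap of 25 cell cycle inhibitor and p53 target genes, of which 8 were higher on both 9A1 arrays and 0 lower, against 13.8% and 27.1% of all genes. The median of that list was 0.13, and it was 0.35 without the 2 discordant libraries. At day 5 the list had 3 members higher and 9 lower without overlap, against 20.2% and 24.4% of all genes. Its day 5 median was -0.19. In basal culture 0 of its 25 members passed the limma test with all arrays, and 2, both higher, had an unadjusted p under 0.05. Adamts1, a secreted metalloprotease, read 7.35 and 7.59 against 5.34 and 5.48. The remaining large gaps were in Serpinb9b, Ctsh, 2010315B03Rik, Akr1c14, Maf, Plpp3, Nrep, Tm4sf4, Nfkbie and Sgms2.

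The lines were apart in the same direction at day 5 in 24 of the 39 genes, against 20.2% of all genes, and by at least 1 log2 in 7, against 1.01% of all genes.

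Among the genes lower in 9A1, the largest gap was in G0s2, which encodes an inhibitor of the main triglyceride lipase. G0s2 read 6.49 and 6.24 against 9.62 and 10.11. Cldn6, a tight junction claudin of embryonic epithelia, read 7.77 and 5.44 against 11.39 and 10.60, and Lamb3, a chain of the basement membrane protein laminin-332, read 8.90 and 9.51 against 11.65 and 11.75. In aggregates at day 5 the line difference in Cldn6 was not seen, with means of 5.90 in 9A1 and 5.91 in 14B3. Bex1, an X-linked gene, read 9.26 and 9.40 against 11.91 and 11.85. Gatm, the first enzyme of creatine synthesis, read 7.24 and 5.72 against 9.88 and 9.04, and at day 5 it was called lower in 9A1, at 5.40 and 5.76 against 9.80 and 10.02 (adjusted p = 0.0138, limma).

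Several transcription factors and secreted enzymes followed the same order. Bnc1, a zinc finger protein of stratified epithelia, read 5.48 and 6.64 against 8.64 and 8.31, and the T-box factor Eomes read 6.57 and 6.66 against 8.29 and 8.33. Htra1, a secreted serine protease, read 10.04 and 10.05 against 11.59 and 11.56, and it too was called at day 5 (adjusted p = 0.0488, limma). Krt79, a keratin, read 7.66 and 8.40 against 10.43 and 9.91, and the carbonic anhydrase Car12 read 6.56 and 5.79 against a mean of 8.13 in 14B3. Morc4, Eya2, Stbd1, Ripor2 and Niban1 also lay at least 1 log2 lower. Of the 34 genes, 16 lay lower in 9A1 at day 5 without overlap, against 24.4% of all genes. The lines were at least 1 log2 apart at day 5 in 6 of the 34, against 0.665% of all genes.

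**Figure D3:**
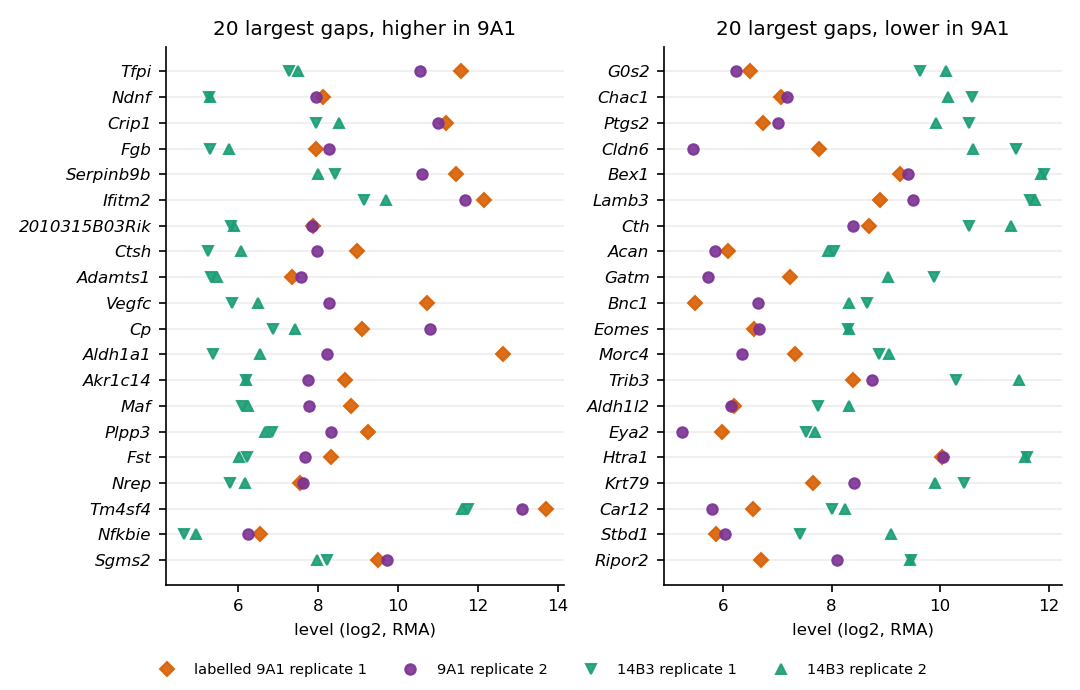
Level (x axis, log2 RMA) of the 20 genes with the largest gap in each direction on the 4 basal arrays, 1 symbol per array, ordered by gap. In every gene shown, both 9A1 symbols lie on the same side of both 14B3 symbols.

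The list that stood lower most often held genes of the amino acid stress response. When amino acids run short or the endoplasmic reticulum is stressed, cells raise translation of the transcription factor ATF4, which binds amino acid response elements in genes of amino acid synthesis, uptake and redox balance. Of 26 such genes tested, 19 were lower on both 9A1 arrays and 0 higher, against 27.1% and 13.8% of all genes, and the median difference was -1.23 against -0.05. The list averaged 8.91 and 9.30 on the 9A1 arrays and 10.17 and 10.47 on the 14B3 arrays. Only Chac1 passed the test over all 12 arrays, and 10 members passed it, all lower, without the 2 discordant libraries, where 1.2% of all genes were lower. Unlike the hepatocyte list, this median was of similar size without them, at -0.88.

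Cth, the enzyme that makes cysteine from cystathionine, read 8.69 and 8.40 against 10.53 and 11.31. Slc7a11, the cystine transporter subunit, read 6.44 and 7.37 against 8.06 and 8.81. Trib3, a pseudokinase induced by ATF4, read 8.39 and 8.74 against 10.30 and 11.46, with both its probe sets in the same order. Gclc, which catalyses the first step of glutathione synthesis and is in the list of detoxification enzymes, had the opposite order, at 12.03 and 12.11 against 10.95 and 11.46. Atf4 itself read 12.02 and 12.37 against 12.96 and 13.16. In other members the library labelled 9A1 replicate 1 was the lowest. Psph, the last enzyme of serine synthesis, read 8.80 and 10.16 against 11.49 and 11.65. Shmt2 read 9.54 and 11.16 against 12.09 and 12.14, and Mthfd2, also of mitochondrial folate metabolism, read 8.28 and 10.25 against 11.24 and 11.17. Aldh1l2, another mitochondrial folate enzyme, did not share this and read 6.20 and 6.15 against 7.75 and 8.31. Asns, the asparagine synthetase gene, read 9.18 and 11.64 against 12.58 and 12.72. The order did not hold for 2 other stress factors. Ddit3 and Atf3 overlapped between the lines, at 10.06 and 8.11 against 8.61 and 9.74, and 9.45 and 8.52 against 8.74 and 8.56.

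In aggregates the lines were closer. At day 5 the list averaged 8.78 and 8.65 in 9A1 and 8.94 and 8.83 in 14B3, all below the basal 14B3 level, and 12 of 26 members were lower and 4 higher in 9A1 without overlap, against 24.4% and 20.2% of all genes.

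Promoter sequences are shown for the members that were lower on both 9A1 arrays and held the letters TGATGNAA, the core of the amino acid response element, on either strand within 250 bases before the RefSeq start. Capitals mark the match, sequences run 5′ to 3′ along the gene's strand, and positions are on GRCm38.p6.
Chac1 (chr2:119350992-119351241, plus strand): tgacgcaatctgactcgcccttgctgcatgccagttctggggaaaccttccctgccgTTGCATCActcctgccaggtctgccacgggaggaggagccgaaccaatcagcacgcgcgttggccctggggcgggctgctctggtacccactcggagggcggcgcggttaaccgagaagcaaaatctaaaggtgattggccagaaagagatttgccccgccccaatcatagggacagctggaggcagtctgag
Slc7a11 (chr3:50443614-50443863, minus strand): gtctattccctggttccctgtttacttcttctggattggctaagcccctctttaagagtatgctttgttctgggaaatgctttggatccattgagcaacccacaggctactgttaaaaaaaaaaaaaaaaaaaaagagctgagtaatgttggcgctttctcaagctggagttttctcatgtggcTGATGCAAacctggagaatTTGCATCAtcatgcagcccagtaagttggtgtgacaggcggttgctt
Fgf21 (chr7:45615491-45615740, minus strand): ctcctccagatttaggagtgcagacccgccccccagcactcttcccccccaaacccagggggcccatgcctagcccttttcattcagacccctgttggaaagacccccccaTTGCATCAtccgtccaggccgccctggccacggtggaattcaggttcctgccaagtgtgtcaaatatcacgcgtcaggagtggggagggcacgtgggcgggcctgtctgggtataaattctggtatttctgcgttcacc
Asns (chr6:7693210-7693459, minus strand): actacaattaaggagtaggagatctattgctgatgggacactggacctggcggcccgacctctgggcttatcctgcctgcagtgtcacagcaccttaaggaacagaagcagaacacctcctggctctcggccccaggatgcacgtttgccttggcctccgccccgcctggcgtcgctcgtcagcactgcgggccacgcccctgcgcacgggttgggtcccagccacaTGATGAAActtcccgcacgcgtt
Of the 26 list members, 21 had a promoter in the RefSeq table, and 7 of those held the letters. Of the 19 members lower in 9A1, 14 had a promoter and 4 held them, Slc7a11 on both strands. Counted by gene in the same way, the letters were held by 2.70% of the 12610 tested genes with a promoter. Over all 27025 genes of the RefSeq table the share was 3.91%. A match describes these letters and not a bound site, and the list was assembled from genes known to respond to ATF4.

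Cholesterol synthesis genes were also lower in 9A1, by smaller amounts. Of 19 tested, 13 were lower on both 9A1 arrays and 1 higher, against 27.1% and 13.8% of all genes, with a median difference of -0.57. None passed the limma test with all arrays, and 2, both lower, had an unadjusted p under 0.05. Without the 2 discordant libraries the median was -0.68 and 6 were called lower, against 1.2% of all genes. Lss, lanosterol synthase, read 9.88 and 9.44 against 10.79 and 10.68. Fdps, which makes farnesyl diphosphate, read 12.35 and 12.54 against 13.39 and 13.23, and the decarboxylase Mvd read 9.01 and 8.73 against 9.87 and 9.69. Insig1, a sterol-regulated brake on the pathway, was the member higher in 9A1, at 9.58 and 9.06 against 8.98 and 8.98. At day 5, 11 of the 19 lay lower in 9A1 and 0 higher, against 24.4% and 20.2% of all genes.

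**Figure D4:**
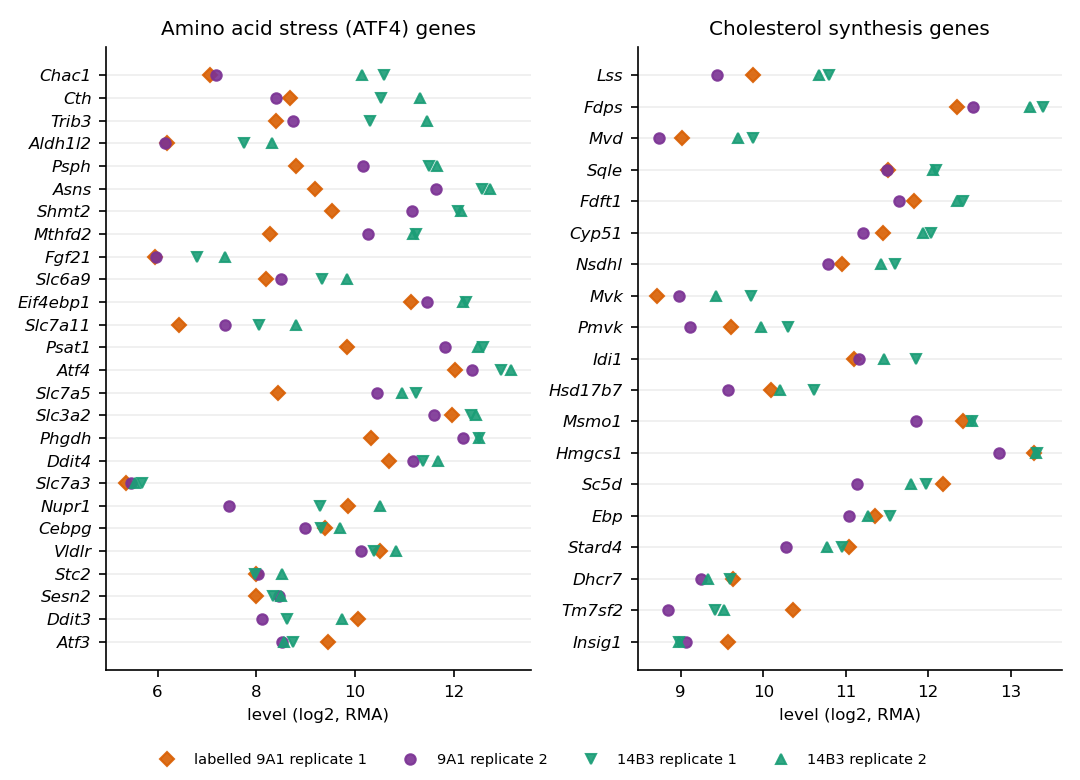
Level (x axis, log2 RMA) of the 26 amino acid stress genes (left) and the 19 cholesterol synthesis genes (right) on the 4 basal arrays, 1 symbol per array, ordered by the gap between the lines. Both 9A1 symbols lie left of both 14B3 symbols in 19 and 13 genes, and to the right in 0 and 1.

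Genes of antigen presentation on MHC class I showed the opposite order. Of 15 tested, 10 were higher on both 9A1 arrays and 0 lower, against 13.8% and 27.1% of all genes, with a median difference of 0.40. By limma with all arrays 0 of the 15 passed in basal culture, and 2, both higher, had an unadjusted p under 0.05. Without the 2 discordant libraries the median was 0.23. At day 5 the list was evenly split, with 5 members higher and 5 lower without overlap, against 20.2% and 24.4% of all genes. B2m, the light chain of class I molecules, read 13.05 and 12.60 against 12.22 and 12.28, and the peptide-loading factor Tapbp read 10.71 and 9.30 against 8.65 and 8.83. The heavy chain gene H2-K1 read 9.05 and 9.85 against 8.64 and 8.79, and was called higher in 9A1 at day 5 (adjusted p = 0.0407, limma). H2-D1, another heavy chain gene, read 11.59 and 8.51 against 9.73 and 10.38, so its 9A1 arrays lay on either side of 14B3. Transcripts of related class I genes can share probes, and their levels may not be separate.

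The proliferation lists had their lowest basal average on the library labelled 9A1 replicate 1. Of 30 DNA replication genes, 12 were lower on both 9A1 arrays and 0 higher, and of 28 mitosis genes 9 were lower and 0 higher, against 27.1% and 13.8% of all genes, so that the mitosis count lay near the share of all genes. By limma, 0 of either list was called with all arrays or without the 2 discordant libraries, and with all arrays 3 and 1 members, all lower, had an unadjusted p under 0.05. Their medians went from -0.41 to -0.10 and from -0.57 to 0.01. At day 5, 14 of the 30 and 19 of the 28 lay lower in 9A1 without overlap and 1 of each higher. Of all genes, 24.4% lay lower and 20.2% higher at day 5. The day 5 medians of the 2 lists were -0.24 and -0.60. Of 26 hypoxia and glycolysis genes, 4 were lower on both 9A1 arrays, a share below that of all genes. Without the 2 discordant libraries 7 were called lower, against 1.2% of all genes, among them Aldoc, a glycolytic aldolase, at 11.41 and 7.49 against 10.31 and 10.87. The list means were 10.78, 9.57, 10.14 and 10.24, and the median difference was 0.04 with all arrays and -0.45 without the 2 discordant libraries.

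With the 2 discordant libraries left out, 1 basal 9A1 array stood against 2 of 14B3, and it was assumed to vary like the other groups. The basal calls of this fit rest on that array. In most of them, in each direction, the omitted basal library labelled 9A1 replicate 1 lay nearer the 14B3 mean than to that array. The limma test then called 187 genes higher (1.18%) and 189 lower (1.2%) in 9A1. Of these, 159 and 153 had the same sign at day 5, and 69 and 55 were called there in the same direction, where 2.01% and 1.55% of all genes were called. Sox17, an endoderm transcription factor, read 11.60 on that library, 6.01 on 9A1 replicate 2, and 9.13 and 9.47 in 14B3, and the day 5 arrays read 5.37 and 5.63 in 9A1 against 9.67 and 9.62 in 14B3. Nid1, a basement membrane protein, read 7.90, 11.79, 9.65 and 9.12, and the day 5 levels were 11.63 and 11.60 against 8.37 and 8.90. Cxcl5, a neutrophil chemokine, read 3.79, 9.42, 5.05 and 5.11, and was near background at day 5 in both lines. These genes were chosen after their values were seen.

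Genes of chromosome 7 were shifted as a block on both 9A1 arrays. Over its 702 genes with a mean level of at least 7, the median difference from the basal 14B3 mean was taken. The array's median difference over all genes at that level, on every chromosome, was subtracted from it. It was then 0.18 on the library labelled 9A1 replicate 1 and 0.26 on replicate 2. On the other 19 chromosomes that median lay between -0.08 and 0.04 and between -0.05 and 0.07 on the 2 arrays. The shift was above 0 in 14 and 15 of 15 consecutive stretches of 10 Mb on the 2 arrays. The share of chromosome 7 genes above the array's median difference over all chromosomes was 62.7% and 81.2%. Set against 14B3 of the same culture, the day 5 arrays of 9A1 gave 0.19 and 0.21. The day 1 arrays gave 0.43 and 0.25, including the array discordant in Xist. Other chromosomes lay between -0.06 and 0.22 on day 1 9A1 replicate 1, where chromosome 4 was the highest of them. They lay between -0.17 and 0.10 on day 1 9A1 replicate 2, and between -0.06 and 0.02 and between -0.10 and 0.06 at day 5. The basal 14B3 duplicates themselves differed on chromosome 7, at -0.07 and 0.07 around their mean, while their other chromosomes lay within 0.02 of 0. No test was run on these medians, since genes are not replicates, and their cause was not tested.

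**Figure D5:**
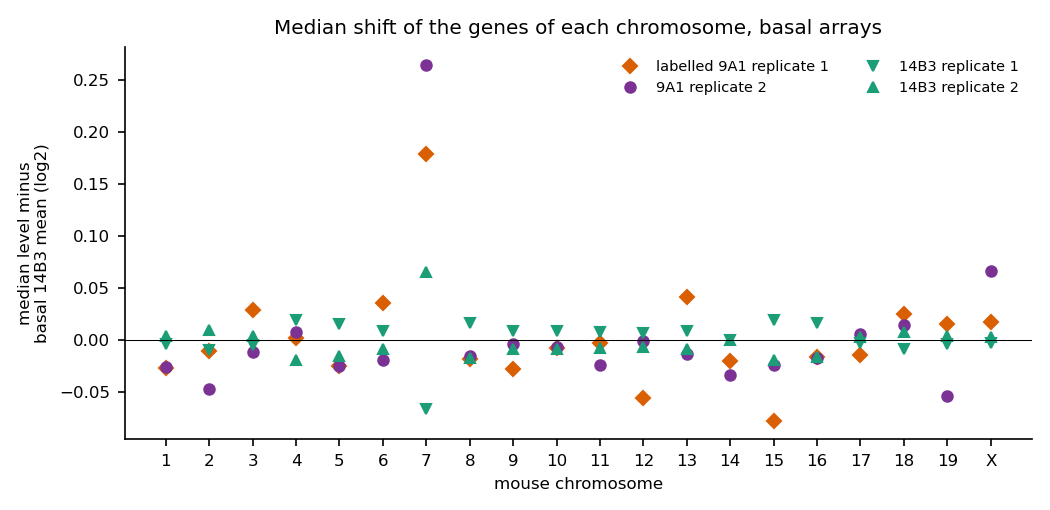
Median over the genes of each mouse chromosome of the level minus the basal 14B3 mean (y axis, log2), on the 4 basal arrays. The array's median over the genes of all chromosomes was subtracted, and each symbol is 1 array. Chromosome 7 lies at 0.18 and 0.26 on the 9A1 arrays, and every other chromosome lies between -0.08 and 0.07.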

How the data were processed

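RNA from 12 cultures was hybridised to Affymetrix mouse arrays. What the authors deposited is a matrix of log2 levels per probe set, and the submitters' processing notes name RMA and R 2.3.1; total RNA differences between cultures are not seen after that normalisation. The number of arrays limits the precision. The file holds 45101 probe sets, of which 34945 carried 1 gene symbol, 932 several and 9160 none, and 64 were controls. Symbols were updated through RefSeq (GRCm38.p6) for 34741. Each of 18194 genes was represented by its probe set with the highest mean, and the 15781 genes that reached 5 on the log2 scale in 2 or more arrays entered the test.

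A mean for each of 6 groups was fitted with limma 3.58.1 in R 4.3.3, with a variance trend and Benjamini-Hochberg adjustment, and the code was tested on simulated data. Groups came from the titles. Nothing states that replicate numbers pair the lines. Deviations of same-numbered arrays of the 2 lines correlated at -0.30 in basal culture, 0.50 at day 1 and 0.13 at day 5. Named are the genes called, up to 3 of each of 35 lists in each direction, a marker panel, the 8 largest excesses and deficits of basal 9A1 replicate 1, and sex-linked genes; other names were chosen after values were seen. The members and lists were chosen with earlier results of these data known. Of 858 list genes, 784 were on the array. P-values measure the spread between these cultures only. Alternatives covered filters, probe set choice, scaling, array weights, moderation, thresholds, a replicate block and arrays left out.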

Additional observations from a re-analysis of the deposited data

Results flagged for a closer look

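The difference between the lines changed from basal culture to day 5 in 6 genes by the interaction test in limma (0.038% of genes). All 6 were higher in 9A1 at day 5. H2-Q2 and Slc5a8 passed the floor of 5 only through the day 5 arrays of 9A1, so their changes are set against background levels. With the floor applied to basal arrays 1 call was left. H2-Q2, an MHC class I gene, had a change of 4.66, from 3.55 and 3.44 in 9A1 and a mean of 3.44 in 14B3 in basal culture to 8.05 and 8.59 in 9A1 against 3.58 and 3.64 in 14B3. The changes were 3.02 for Mep1a, a brush border metalloprotease subunit, and 3.03 for Slc5a8, a monocarboxylate transporter. They were 3.15 for Mfsd4b1, 3.07 for Mylk3, a myosin light chain kinase, and 2.44 for Meltf, an iron-binding surface protein. The adjusted p-values of limma lay between 0.00029 and 0.0441.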

How the results depend on the processing

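Every value rests on 2 arrays per line, and 1 of the 9A1 arrays goes against its label in Xist, Kdm5d, Eif2s3y and Uty. The share of lower genes among those without overlap stayed between 58.3% and 67.4% under the alternatives that could change it. The lists described kept the sign of their median under median centring and quantile normalisation. The 3 lower calls fell to 0 with array weights, with only the 4 basal arrays and at an adjusted p under 0.01, and the 6 interaction calls became 14 with array weights, 3 at 0.01 and 1 with the floor applied to basal arrays. With the mean of a gene's probe sets 1 gene was higher, and with every probe set on its own 1 was higher, 5 lower and 70 had a gap of at least 1 log2 upward. Without basal 9A1 replicate 1 and day 1 9A1 replicate 2, the counts were 187 higher, 189 lower, 124 also called at day 5, 148 for the interaction, and 195 and 136 for the gaps upward and downward. Leaving out single arrays gave 0 to 1031 higher calls, 0 to 464 lower, 0 to 29 also called at day 5, 1 to 707 for the interaction, and 39 to 1000 and 34 to 468 for the gaps. The highest of each came without basal 9A1 replicate 2, where the difference of Cxcl5 turned to -1.29, against 1.53 with all arrays and 4.34 without basal 9A1 replicate 1. The fit with the replicate block called 0 higher, 2 lower and 4 for the interaction. The crossed pairing, chosen after seeing the data, called 0 higher, 0 lower and 4. The cause of these changes was not tested.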
